A study of Homo sapiens with 9 samples.

Results

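NF-κB signalling in HepG2 cells was followed through 10 genes fixed by name: the transcription factor genes NFKB1, NFKB2 and RELB, the feedback inhibitors NFKBIA and TNFAIP3, the adhesion molecule ICAM1, and the chemokines CXCL8, CXCL1, CXCL2 and CCL20. Each matched 1 row of the deposited table of 60612 genes, and 9 of the 10 were abundant enough to test among 20157 genes. HepG2 is an established human liver carcinoma line with many traits of hepatocytes. RNA was sequenced in 9 libraries, 3 per group: ctrl, which received 0.1% DMSO as the solvent, PQY09 at 50 µM, and PQY23_1 at 50 µM. In the series title PQY09 is Butyrolactone I, a fungal butenolide that blocks certain cyclin dependent kinases. PQY23_1 is named there among its derivatives. No inflammatory stimulus is named for any group, and the length of exposure is not given in the sources used here. No DMSO content is recorded for the compound groups.

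NF-κB factors are dimers of Rel proteins that wait in the cytoplasm, bound to inhibitors such as IκBα, the product of NFKBIA. Signals from cytokine or pattern receptors lead IκB kinase to mark the inhibitor for destruction, and the freed dimer enters the nucleus and binds κB sites in DNA. Among the genes it switches on are NFKBIA and TNFAIP3, which shut the signal down again, genes of the pathway's own subunits, and the chemokines and adhesion molecules with which an injured or infected liver draws in leukocytes.

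The deposited counts summed to between 85050531 and 107538450 per library, and 23192 to 24256 genes had a count above 0. All 10 hepatocyte markers were above 1 CPM (counts scaled to a common library size) in every library. Their summed level was 34200 to 36800 CPM under DMSO, 33200 to 35500 under PQY09 and 30200 to 32400 under PQY23_1, so that the PQY23_1 libraries lay below all others. Of 8 leukocyte and macrophage markers, PTPRC, the common leukocyte antigen, did not exceed 0.041 CPM and CD3E was at 0. The summed level of these 8 was 28.9 to 37.3 CPM under DMSO, 29.4 to 39.2 under PQY09 and 43.6 to 54.8 under PQY23_1, most of it from CD68, a lysosomal protein that other cells express too, at 25.3 to 51.5 CPM. The part of these differences in the results below was not tested. Summed levels of 4 endothelial markers were 1.7 to 2.4, 2.71 to 3.39 and 1.61 to 2.29 CPM in the same order. KDR was at 0, VWF at 0.046 to 0.491, PECAM1 at 0.217 to 1.41 and CDH5 at 0.346 to 2.43 CPM. Summed levels of 6 fibroblast and stellate cell markers were 56.7 to 65.3, 62.7 to 66.9 and 57.9 to 64.8 CPM. Most of that came from ACTA2, at 49.2 to 62.2 CPM. PDGFRB was at 2.99 to 5.14 and COL1A1 at 1.44 to 2.71 CPM. DCN did not exceed 0.132 CPM, and COL1A2 and LRAT were at 0. Mitochondrially encoded genes took 12.6 to 14.1% of counts under DMSO, 12.5 to 14.6% under PQY09 and 14.5 to 16.4% under PQY23_1. The bulk values cannot tell apart fewer cells that express a gene and less RNA in each cell.

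Levels per gene length (FPKM, fragments scaled to gene length and library size, as the authors deposited them) put the members far apart in DMSO-treated cells. ICAM1 was the highest at 48.8 ± 2.45 FPKM (SD, n = 3 here and below), followed by CCL20 at 33.4 ± 3.91 and NFKBIA at 20.6 ± 1.23 FPKM. These 3 lay above 97.8%, 96.7% and 94.4% of the 31442 genes with any count. NFKB1 (8.55 ± 0.44 FPKM), TNFAIP3 (6.54 ± 0.469) and NFKB2 (4.49 ± 0.208) formed a middle tier. CXCL8, at 1.43 ± 0.0702 FPKM, and RELB, at 1.05 ± 0.269, came next; the lowest CXCL8 library (1.36) and the highest RELB library (1.35) nearly met. CXCL2 stood at 0.223 ± 0.0619 FPKM. The order held its outline under the compounds with a few exchanges. Under PQY09 the FPKM of NFKBIA (24.8 to 27.3) lay above that of CCL20 (19.9 to 22.5) in all libraries, and under PQY23_1 the ranges overlapped (20.1 to 20.9 and 17.5 to 20.5). Likewise TNFAIP3 (4.04 to 4.99 FPKM) and NFKB2 (3.99 to 4.32) overlapped under PQY23_1 only among the 3 groups.

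**Figure D1:**
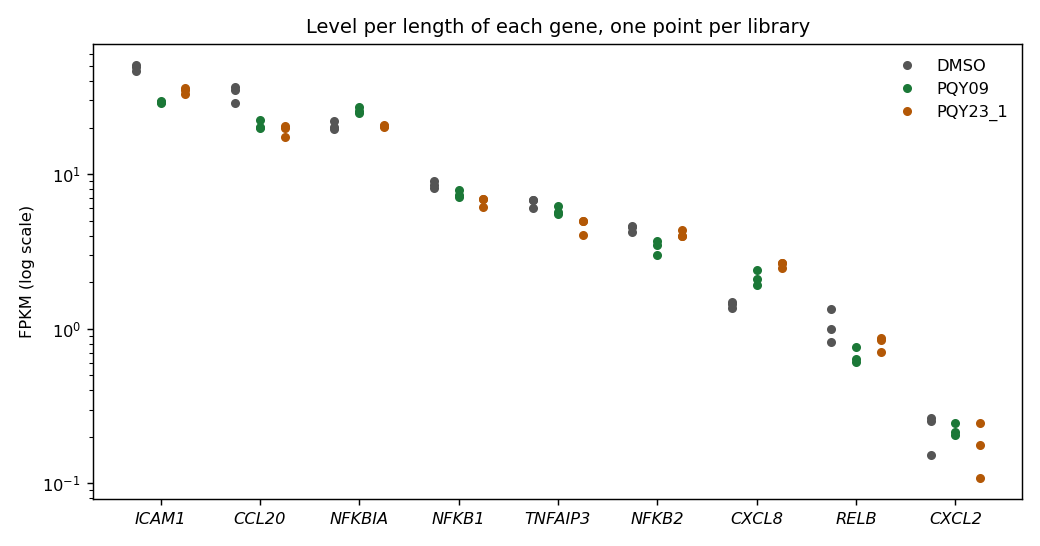
Deposited FPKM (log axis) of 9 members, 1 point per library, coloured by group and ordered by the DMSO mean; CXCL1, with no count in any library, is left out. ICAM1 and CCL20 lead under DMSO, at 48.8 and 33.4 FPKM, and CXCL2 is lowest at 0.223.

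The promoters of 5 members are shown because these genes went different ways: CXCL8 was higher under both compounds, CCL20 and ICAM1 were lower under both, NFKBIA stood highest under PQY09, and CXCL1 had no count in any library. Each line gives the 200 bases before the transcription start (RefSeq, GRCh38.p14), written in the direction of the gene. Capitals mark matches to the κB consensus, to its palindromic core GGAANTTCC, or to the AP-1 motif TGANTCA, on either strand.
CXCL8 (chr4:73740369-73740568, plus strand): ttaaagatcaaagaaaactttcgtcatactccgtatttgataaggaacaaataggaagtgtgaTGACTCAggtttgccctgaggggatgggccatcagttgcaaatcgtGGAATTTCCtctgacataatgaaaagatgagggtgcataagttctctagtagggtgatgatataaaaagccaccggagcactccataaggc
CCL20 (chr2:227813642-227813841, plus strand): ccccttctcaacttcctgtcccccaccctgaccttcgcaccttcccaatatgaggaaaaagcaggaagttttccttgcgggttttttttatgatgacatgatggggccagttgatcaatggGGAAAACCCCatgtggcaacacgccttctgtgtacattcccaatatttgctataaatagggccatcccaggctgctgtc
ICAM1 (chr19:10270920-10271119, plus strand): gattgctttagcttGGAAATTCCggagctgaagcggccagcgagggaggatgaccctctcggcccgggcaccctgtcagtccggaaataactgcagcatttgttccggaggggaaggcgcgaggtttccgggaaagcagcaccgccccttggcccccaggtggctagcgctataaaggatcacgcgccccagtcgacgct
NFKBIA (chr14:35404750-35404949, minus strand): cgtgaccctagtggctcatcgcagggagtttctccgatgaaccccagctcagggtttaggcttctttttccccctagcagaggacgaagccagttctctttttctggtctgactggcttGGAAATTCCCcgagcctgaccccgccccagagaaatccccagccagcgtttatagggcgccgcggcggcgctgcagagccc
CXCL1 (chr4:73869193-73869392, plus strand): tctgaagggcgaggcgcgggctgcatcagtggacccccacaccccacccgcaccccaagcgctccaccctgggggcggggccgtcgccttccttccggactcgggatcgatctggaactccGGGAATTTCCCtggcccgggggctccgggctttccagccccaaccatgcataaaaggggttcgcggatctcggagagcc

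RefSeq windows of 300 bases (250 before and 50 after each start) were found for 9 members, all but RELB, with 12 windows in all. The κB consensus occurred in windows of 7 of the 9 (8 of 12 windows), against 11.3% of 35114 promoter windows: NFKB1, NFKB2, NFKBIA, TNFAIP3, CXCL1, CXCL2 and CCL20. GGAANTTCC, searched after these sequences had been read, occurred in 6 of the 9 (6 of 12 windows), against 0.965% of all windows, and overlaps the κB consensus in NFKB1, NFKBIA, CXCL1 and CXCL2. In CXCL8 and ICAM1 it was the only κB-like match, at -91 to -83 and -186 to -178 from the start. CXCL8 alone among the 9 held TGANTCA, at -137 to -131, a motif found in 7.71% of all windows. The matches are letters only; neither binding nor use of a site was measured, and members that rose and members that fell both held them.

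**Figure D2:**
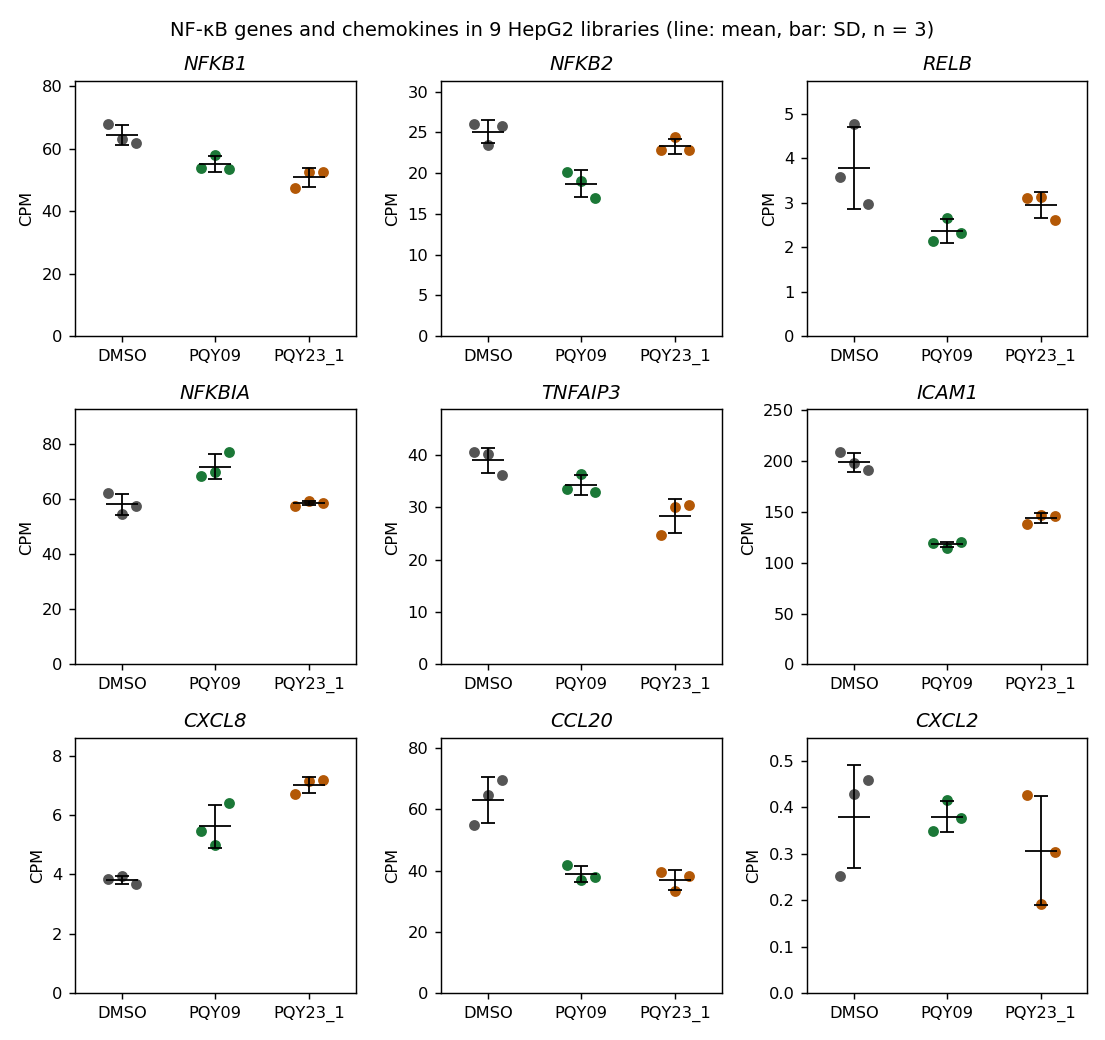
Library-scaled counts (CPM) of the 9 members with counts, 1 panel per gene with its own axis from 0; points are libraries, the long line is the mean and the bar the SD of 3. ICAM1 and CCL20 are lower in all 6 compound libraries than in any DMSO library, CXCL8 is higher in all 6, and NFKBIA is higher only in the PQY09 libraries.

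The first comparison, PQY09 against DMSO, asks how these transcripts differed between the parent compound and the solvent control. ICAM1 fell 1.69-fold and CCL20 fell 1.62-fold, NFKB2 fell 1.34-fold, and CXCL8 rose 1.47-fold. NFKBIA was 1.24-fold higher and just missed the threshold. In all, 3 of the 9 members tested were called lower and 1 higher by edgeR's quasi-likelihood test at a Benjamini-Hochberg adjusted p below 0.05 over all genes, where 1.07% of all 20157 genes were lower and 1.78% higher. The groups did not overlap for 7 of the 9, against 24.4% of all genes, and the median log2 fold change was -0.225 against 0.003 over all genes. The members were chosen with earlier results of these data known. Shares of the set, here and in the later comparisons, are thus descriptions and not a test of the set.

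The second comparison puts the derivative, PQY23_1, in the place of its parent. CXCL8 rose 1.84-fold, while CCL20 fell 1.71-fold, ICAM1 1.38-fold, TNFAIP3 1.38-fold and NFKB1 1.26-fold. With 4 of the 9 members called lower and 1 higher, against 1.04% and 1.51% of all genes, the median log2 fold change was -0.338 (0.007 over all genes). The groups did not overlap for 5 of the 9, against 22.5% of all genes. Both comparisons use the same 3 DMSO libraries, so that a high or low DMSO value enters both.

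**Figure D3:**
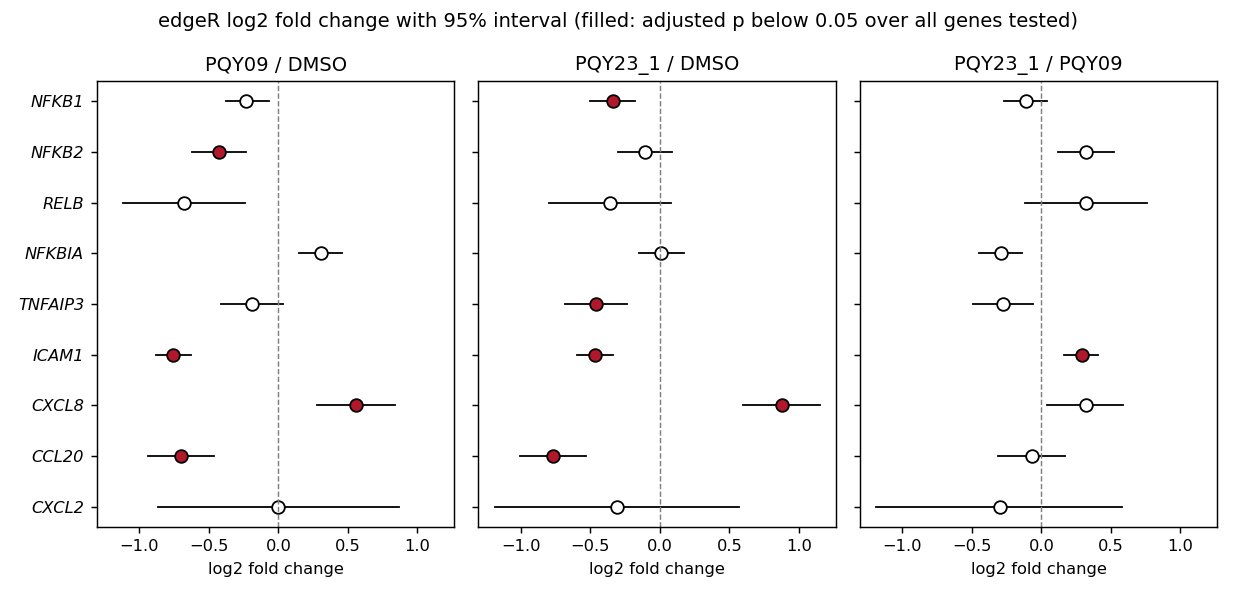
edgeR log2 fold changes (horizontal axis) with 95% intervals for the 9 tested members in the 3 comparisons; filled points passed an adjusted p below 0.05 over all genes tested. ICAM1, CCL20 and CXCL8 are filled under both compounds, and between the compounds ICAM1 alone is filled, at 0.29.

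Among the transcription factor genes, NFKB1, which encodes the precursor of the p50 subunit, counted 68.1, 63.1 and 62 CPM in the DMSO libraries, 54, 57.9 and 53.4 under PQY09, and 47.5, 52.7 and 52.6 under PQY23_1. Every compound library lay below every DMSO library. The fall passed the test under PQY23_1 (log2 -0.34 ± 0.07, SE; edgeR adjusted p = 0.0417), and PQY09 gave -0.23 ± 0.07 (adjusted p = 0.148). The PQY23_1 call did not survive the loss of any 1 of the 9 libraries (adjusted p 0.0604 to 0.123). The gene spans 102501331 to 102617302 of chromosome 4 (hg38).

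NFKB2 encodes the precursor that is cut to the p52 subunit in the slower, noncanonical branch of the pathway. It counted 26.1, 23.5 and 25.8 CPM under DMSO and 20.2, 19 and 16.9 under PQY09, so that these groups were separate, while 22.8, 24.4 and 22.8 CPM under PQY23_1 overlapped DMSO. The fall was called under PQY09 (log2 -0.43 ± 0.09, edgeR adjusted p = 0.0401) and not under PQY23_1 (-0.11 ± 0.09, 0.626). With any 1 library left out the adjusted p under PQY09 was 0.0524 to 0.129.

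RELB, the partner of p52 in that branch, was low and uneven. The DMSO libraries held 3.58, 4.78 and 2.98 CPM, the PQY09 libraries 2.13, 2.65 and 2.31, and the PQY23_1 libraries 3.11, 3.12 and 2.61. All PQY09 values lay below the DMSO values, whose coefficient of variation was 24.2%. Neither PQY09 (log2 -0.68 ± 0.19, edgeR adjusted p = 0.12) nor PQY23_1 (-0.36 ± 0.19, 0.412) passed the test; DESeq2 alone among the alternatives called PQY09 (adjusted p = 0.0251).

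The 2 feedback inhibitors differed in their pattern. NFKBIA counted 62, 54.4 and 57.6 CPM under DMSO, 68.4, 69.8 and 77 under PQY09, and 57.6, 59.3 and 58.6 under PQY23_1. The PQY09 libraries stood above the other 6, and the PQY23_1 libraries lay within the DMSO range. The log2 change was 0.31 ± 0.07 under PQY09 (edgeR adjusted p = 0.0588) and 0.01 ± 0.07 under PQY23_1 (adjusted p = 0.963, 95% interval -0.15 to 0.17). NFKBIA passed the threshold under PQY09 with DESeq2 (0.0076), with library totals in place of TMM scaling (0.0338) and with limma on log2(FPKM + 1) (0.0211) or log2(FPKM + 0.1) (0.0282).

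TNFAIP3 encodes a ubiquitin-editing enzyme that removes the signal upstream of IκB kinase. Its 3 DMSO libraries held 40.5, 40.2 and 36.1 CPM, and those of PQY23_1 held 24.6, 30 and 30.3, with no overlap. PQY09 lay between, at 33.5, 36.3 and 32.8 CPM, and overlapped DMSO. The fall under PQY23_1 was called (log2 -0.46 ± 0.1, edgeR adjusted p = 0.046), though not with any 1 library left out (0.0682 to 0.162); PQY09 gave -0.19 ± 0.1 (adjusted p = 0.413). An antisense gene, WAKMAR2, overlaps TNFAIP3 and held 2.1% as many counts.

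ICAM1, the endothelial and epithelial ligand of leukocyte integrins, showed the lowest adjusted p of the set. It counted 209, 198 and 191 CPM under DMSO, 119, 115 and 120 under PQY09, and 138, 147 and 146 under PQY23_1. The 3 groups formed separate steps, with DMSO highest and PQY09 lowest. ICAM1 fell by a log2 of 0.76 ± 0.06 under PQY09 (edgeR adjusted p = 0.000317, rank 25 of 20157 by p) and by 0.47 ± 0.06 under PQY23_1 (adjusted p = 0.00481, rank 75). Both calls held in all 9 fits that left out a library (at most 0.00324 and 0.029) and under the 11 other settings. The gene lies at 10271093 to 10285583 of chromosome 19, and its promoter, printed above, held no match to the full κB consensus.

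Of the chemokines, CXCL8 encodes IL8, which attracts neutrophils. CPM values were 3.83, 3.95 and 3.66 under DMSO, 5.46, 5 and 6.41 under PQY09, and 6.7, 7.14 and 7.16 under PQY23_1. The 3 groups did not overlap, with DMSO lowest and PQY23_1 highest. The log2 change was 0.88 ± 0.12 under PQY23_1 (edgeR adjusted p = 0.0101), a call kept with each library left out (at most 0.0468). Under PQY09 it was 0.56 ± 0.12 (edgeR adjusted p = 0.0492). The PQY09 call was lost with any 1 library left out (0.0606 to 0.151), with DESeq2's size factors (0.0528) and without mitochondrially encoded genes (0.0508). It was also lost with no filter on low counts (0.0906), with only the 2 groups compared (0.0984) and with replicate number in the fit (0.118). The counts behind these values were 333 to 433 under DMSO, 494 to 679 under PQY09 and 597 to 662 under PQY23_1. CXCL8 lies at 73740541 to 73743716 of chromosome 4.

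CCL20, the ligand of CCR6 that attracts dendritic cells and some T cells, moved the other way. It held 54.9, 64.9 and 69.5 CPM under DMSO, 41.7, 37.1 and 37.8 under PQY09, and 39.6, 33.3 and 38.1 under PQY23_1. The 6 compound libraries overlapped each other and lay below the DMSO libraries, whose spread was wide. CCL20 fell by a log2 of 0.7 ± 0.1 under PQY09 (edgeR adjusted p = 0.0108) and by 0.77 ± 0.1 under PQY23_1 (0.00951). The first call missed the threshold without ctrl replicate 2 (0.0522) or PQY09 replicate 3 (0.0505), and the second was kept in all 9 leave-outs (at most 0.0485). The gene lies at 227805739 to 227817556 of chromosome 2. Its promoter stretch printed above precedes the RefSeq start, which differs from the deposited start, and lies inside this span.

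CXCL1 and CXCL2, neutrophil attractants that share a receptor with CXCL8, were hardly seen. CXCL1 had a count of 0 in all 9 libraries; 3 fragments, taken as 12 counts, would allow up to 0.11 to 0.144 CPM in a library. CXCL2 had 16 to 48 counts per library: 0.253, 0.429 and 0.458 CPM under DMSO, 0.348, 0.415 and 0.378 under PQY09, and 0.426, 0.191 and 0.303 under PQY23_1. The groups overlapped throughout, and the log2 intervals were wide, from -0.87 to 0.87 under PQY09 and from -1.19 to 0.57 under PQY23_1, so that a change smaller than these bounds could not be seen at this depth. Both genes lie in the chemokine cluster on chromosome 4, 129 and 356 kb from CXCL8, and are near copies of each other and of CXCL3. Whether the authors' counting split or dropped shared reads was not tested. The promoter windows of CXCL1 and CXCL2 share an unbroken run of 42 bases and each hold the κB consensus, at -79 and -78.

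The third comparison, PQY23_1 against PQY09, sets the parent compound beside its derivative at the same dose, as the only pair of compounds in the series. ICAM1 was 1.22-fold higher under PQY23_1 than under PQY09 (144 ± 5.13 against 118 ± 2.84 CPM; log2 0.29 ± 0.06, edgeR adjusted p = 0.0364). It was the 1 member of 9 called in either direction, where 2.22% of all genes were called. The call was kept without ctrl replicate 1 (0.0425) or PQY23_1 replicate 1 (0.0399) and missed the threshold in the other 7 leave-outs (0.0544 to 0.153). It also missed the threshold with library totals alone (0.0715), with no filter on low counts (0.071) and with limma on log2(FPKM + 1) (0.0516) or log2(FPKM + 0.1) (0.0662). The same held with only the 2 groups compared and with replicate number in the fit (highest 0.108). In all, the call was kept in 5 of 11 other settings.

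The groups of the 2 compounds did not overlap for 6 of the 9 members, against 22% of all genes. NFKBIA was lower under PQY23_1 (log2 -0.29 ± 0.07, 95% interval -0.45 to -0.14; edgeR adjusted p = 0.0753) and passed with DESeq2 (0.00968), library totals (0.0303) and limma on FPKM (0.0223 and 0.0299). NFKB2 stood at 0.32 ± 0.09 (0.115; DESeq2 adjusted p = 0.021) and TNFAIP3 at -0.28 ± 0.1 (0.223). For CXCL8 the difference was 0.32, with an interval of 0.04 to 0.59 (edgeR adjusted p = 0.261), and for RELB 0.32, with -0.12 to 0.76. NFKB1 (-0.27 to 0.04) and CCL20 (-0.31 to 0.17) had intervals that include 0 and allow differences of that size.

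The surrounding pathway was described with 110 further genes in 6 lists, of which 88 were tested. PQY09 raised 2 of the 88 and lowered none (2.27% called, against 2.85% of all genes), and PQY23_1 raised 2 and lowered 1 (3.41%, against 2.55%). These shares lie near those of all genes. Between the compounds 4 were higher under PQY23_1 and none lower (4.55%, against 2.22%). That share rests on 4 genes. The number called was 1 with no filter on low counts, 1 to 3 with a library left out and 11 with DESeq2.

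**Figure D4:**
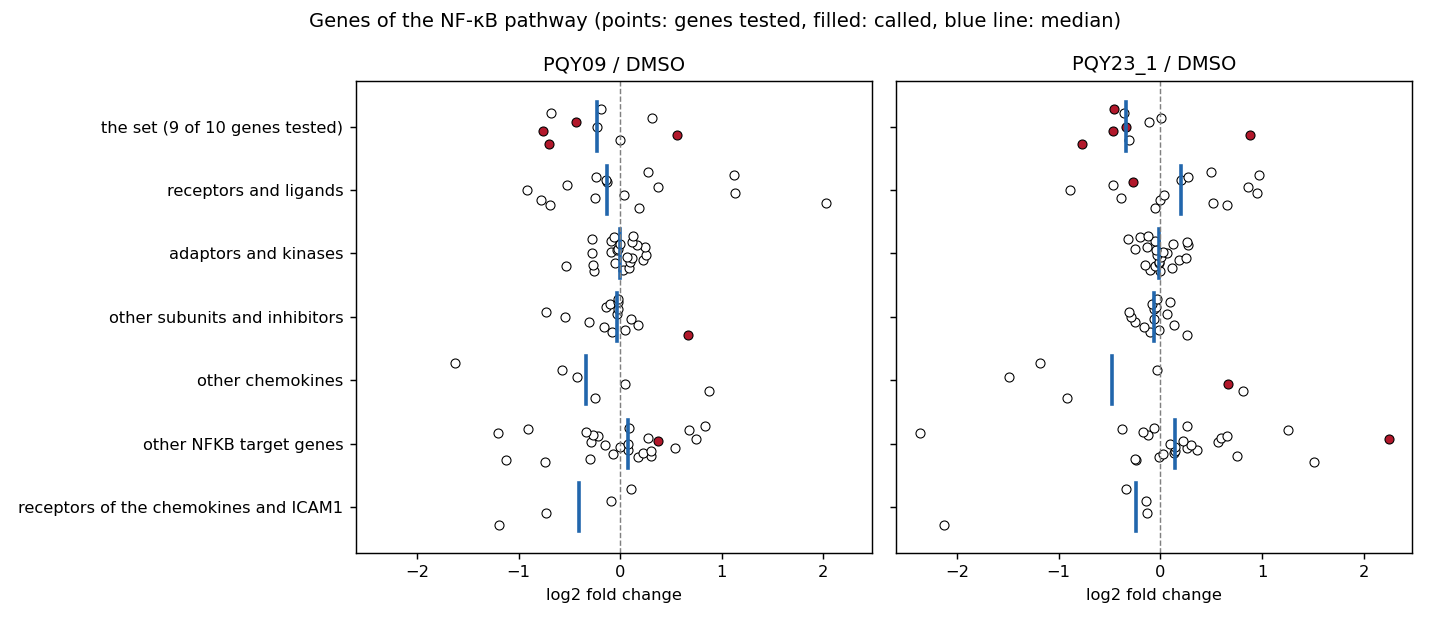
edgeR log2 fold change (horizontal axis) of each tested gene in the set and in 6 pathway lists, under PQY09 (left) and PQY23_1 (right); filled points passed an adjusted p below 0.05 and blue lines are list medians. The 23 adaptors and kinases lie around 0 with no filled point, while the set itself has 4 and 5 filled points. Of all genes, 2.85% and 2.55% were called, so that few or no filled points among 23 genes lie near these shares. The set and the lists were chosen with earlier results of these data known.

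None of the 23 adaptors and kinases, all tested, was called in any comparison by edgeR's quasi-likelihood test. Under PQY09, under PQY23_1 and between the compounds, 2.85%, 2.55% and 2.22% of all genes were called. Few or no calls among 23 genes lie near these shares. In the same order, 4, 1 and 4 of the 23 adaptors and kinases had an unadjusted p below 0.05 in edgeR, where 15.6%, 16.3% and 14.7% of all genes did. Their median log2 change was 0 under PQY09 and -0.009 under PQY23_1. The catalytic subunits of IκB kinase, CHUK and IKBKB, stood at 0.03 ± 0.11 and 0.09 ± 0.09 under PQY09 and at -0.1 ± 0.11 and 0.11 ± 0.09 under PQY23_1. Its scaffold, IKBKG, stood at -0.27 ± 0.11 and -0.15 ± 0.11.

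Of the 15 other subunits and inhibitors, BCL3, an IκB-like coactivator that binds p50 and p52, rose under PQY09. It counted 7.96, 7.18 and 8.24 CPM under DMSO, 10.5, 11.6 and 15.1 under PQY09, and 9.32, 9.75 and 9 under PQY23_1. The DMSO libraries lay below all others. The rise was 1.59-fold under PQY09 (log2 0.67 ± 0.14, edgeR adjusted p = 0.0457), kept in 1 of 9 leave-outs (without PQY09 replicate 1, 0.0491; highest 0.161), and PQY23_1 gave 0.26 ± 0.14 (0.412). RELA, which encodes the main activating subunit, ranged from 30.9 to 56.2 CPM under DMSO and from 34.6 to 60.4 under PQY09, so that its log2 change of -0.02 had an interval of -0.66 to 0.62. REL, a further activating subunit, stood at -0.73 ± 0.18 under PQY09 (8.28 ± 1.69 against 13.7 ± 1.78 CPM, edgeR adjusted p = 0.0732), with groups that did not overlap, and at -0.31 ± 0.18 under PQY23_1. The inhibitors NFKBIB (0.18 ± 0.23 and 0.13 ± 0.23) and NFKBIE (0.11 ± 0.12 and -0.06 ± 0.12) and the nuclear cofactor NFKBIZ (-0.54 ± 0.21 and -0.29 ± 0.21) were not called under PQY09 or PQY23_1.

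Of 21 receptors and ligands, 15 were tested. TNF and IL1B, classic inducers of the pathway, were at or near 0, with 12 and 0 counts over all 9 libraries. IL6, a cytokine that NF-κB induces, had 33 counts, too few to test: 0, 0 and 0 under DMSO, 8, 8 and 10 under PQY09, and 0, 7 and 0 under PQY23_1. All of its counts were thus in compound libraries. With 4 counts taken as a fragment, as for CXCL1, they stand for very few fragments. TNFRSF10B, a death receptor for TRAIL, fell 1.21-fold under PQY23_1, from 172 ± 9.58 to 142 ± 3.03 CPM (edgeR adjusted p = 0.0392, kept only without ctrl replicate 1; highest 0.152). IL18, a cytokine of the IL1 family, was 2.56-fold higher under PQY23_1 than under PQY09 (3.99 ± 0.626 against 1.56 ± 0.154 CPM, with DMSO between at 2.53 ± 0.331). Its adjusted p was 0.00572 in edgeR and at most 0.0363 with any library left out.

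Only 6 of 15 other chemokines were abundant enough to test: CXCL5, CXCL16, CCL14, CCL15, CCL16 and CX3CL1. CXCL3 had 48 counts in all, and CXCL6, CXCL11, CXCL12 and CXCL14 had none. CCL16, a chemokine made mainly by liver, rose 1.6-fold under PQY23_1, with libraries at 10.8, 10.5 and 10.8 CPM against 7.44, 5.8 and 6.86 under DMSO and 6.84, 7.36 and 6.66 under PQY09. PQY09 and DMSO overlapped, and PQY23_1 stood above both (edgeR adjusted p = 0.0199 against DMSO and 0.0285 against PQY09). The first call was lost without ctrl replicate 2 or 3 or any PQY23_1 library (highest 0.0726), and the second was kept only without ctrl replicate 1 or 2 (highest 0.119).

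Of 28 other target genes, 25 were tested. LIF, a cytokine of the IL6 family, rose 1.29-fold under PQY09, from 18.5 ± 0.648 to 24 ± 0.418 CPM (edgeR adjusted p = 0.021), a call lost whenever a DMSO or a PQY09 library was left out (highest 0.0929). NOS2, the inducible nitric oxide synthase, was 4.76-fold higher under PQY23_1, at 1.97 ± 0.541 against 0.413 ± 0.233 CPM (edgeR adjusted p = 0.0436; 0.0536 to 0.129 with a library left out). Between the compounds, IL32, a cytokine, was 1.37-fold higher under PQY23_1 (110 ± 11.1 against 80.6 ± 3.59 CPM, edgeR adjusted p = 0.0364), and BCL2A1, a survival protein, was 4.75-fold higher at levels under 1 CPM (0.554 ± 0.119 against 0.116 ± 0.0451, adjusted p = 0.0393). IL32 lost its call without ctrl replicate 2, any PQY09 library, or PQY23_1 replicate 1 or 3 (highest 0.145), and BCL2A1 lost it in all 9 leave-outs (0.0508 to 0.138). Of 8 receptors of these chemokines and of ICAM1, 4 were tested and none was called in edgeR. Of all genes, 2.85%, 2.55% and 2.22% were called, so that no call among 4 genes says little. An edgeR unadjusted p below 0.05 was found for 1, 1 and 2 of the 4, against 15.6%, 16.3% and 14.7% of all genes. CXCR1, CXCR2 and ACKR1 had no count. CCR6, the receptor of CCL20, stood at 10.8 CPM under DMSO, 6.5 under PQY09 and 9.86 under PQY23_1. Its PQY09 libraries did not overlap the DMSO libraries (log2 -0.73 ± 0.19, edgeR adjusted p = 0.0876), and PQY23_1 gave -0.13 ± 0.19 (0.818). ACKR2, at 1.1 CPM under DMSO, stood at -1.19 ± 0.59 under PQY09 and -2.13 ± 0.61 under PQY23_1 (edgeR adjusted p = 0.385 and 0.122). ITGAL stood at -0.09 ± 0.3 and -0.14 ± 0.31, and ITGB2 at 0.11 ± 0.18 and -0.34 ± 0.18.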

How the data were processed

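RNA of 9 HepG2 libraries was compared in 3 groups taken from the sample titles. The submitters' processing notes list hg38, cutadapt 1.9, HISAT2 2.0.4, StringTie 1.3.4d, DESeq2 and edgeR without saying what each did; annotation release and strand setting were not found there. The authors deposited 1 estimated count per gene and library, whole numbers made from the sequencing reads. They are treated as estimated because the value 4 fills 10696 cells, 3 fills 4024 and 5 fills 2277. The authors also deposited FPKM, set to 1e-04 where the count is 0.

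Counts were filtered with filterByExpr (minimum count 10, minimum total 15), scaled by TMM (factors 0.977 to 1.026) and fitted over all 9 libraries with edgeR 4.0.16 in R 4.3.3 (quasi-likelihood F test, no covariate, 6 residual degrees of freedom). P-values were Benjamini-Hochberg adjusted over 20157 genes within a comparison. The SE is the log2 fold change divided by the square root of F. CPM uses the scaled library sizes. The script was tested on simulated counts. The floor given for CXCL1 covers counting error only. It takes 4 counts as a fragment, so library sums and low counts may stand for fewer fragments. Whether replicate libraries are separate cultures is not said, so the spread behind each p-value may be technical. The members, lists, tests and motifs were chosen with earlier results of these data known. Named genes are all members, called genes of the pathway lists, and 13 panel genes (BCL3 is in both classes). The other chemokines and receptors named from the lists, CCR6 among them, were chosen after their values were seen. Alternatives used limma 3.58.1, DESeq2 1.42.0, other scalings and filters, and left out each library. No deposited value column was left unused.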

Additional observations from a re-analysis of the deposited data

How the results depend on the processing

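ICAM1 and CCL20 under both compounds and CXCL8 under PQY23_1 were called in all 11 other settings. Of all genes, DESeq2 called 1464 (PQY09), 1480 (PQY23_1) and 1285 (between the compounds), against 574, 514 and 448; fitting only the 2 groups compared called 224 for PQY23_1 and 295 between. Members called went from 4, 5 and 1 to 2, 3 and 0 with no filter or with only 2 groups, and to 3 between the compounds with DESeq2. Pathway genes called, 2, 3 and 4, went to 1, 1 and 1 with no filter and to 10, 11 and 11 with DESeq2; limma on log2(FPKM + 0.1) called 5 for each compound, on log2(FPKM + 1) 5 for PQY23_1, and the fit of 2 groups 1 for PQY23_1. The cause was not tested. Leaving out 1 library gave 235 to 628, 138 to 371 and 222 to 397 genes, 1 to 2, 3 to 3 and 0 to 1 members, and 0 to 4, 0 to 3 and 1 to 3 pathway genes.

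Same-numbered libraries did not deviate together (correlations -0.04 to 0.03 in 9 pairs, -0.04 to 0.04 in 18 others). A fit with the replicate block called 342, 237 and 267 genes, 2, 3 and 0 members, and 0, 1 and 1 pathway genes.

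Signs turned for changes near 0, none called. NFKBIA under PQY23_1 was -0.02 with library totals, -0.01 on both FPKM scales and -0.03 to 0.06 in leave-outs. RELA under PQY09 was 0.01 with library totals and -0.34 to 0.2 in leave-outs, and under PQY23_1 -0.26 to 0.16. Leave-outs also gave -0.05 to 0.14 for CHUK under PQY09, and -0.01 to 0.31 for NFKBIB and -0.16 to 0.02 for NFKBIE under PQY23_1. CXCL2 under PQY09, at 0 in the main fit, took both signs in leave-outs, from -0.22 to 0.15. RELB and CXCL2 were too low for the FPKM fits. Low counts limit CXCL2.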
